A study of Mus musculus with 95 samples.

Results

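USF1 sites without a called PCGF3 peak, here called sites without PCGF3, were examined in mouse embryonic stem cells of the E14 line. They are the peaks of the wild-type USF1 chromatin immunoprecipitation (ChIP-seq) list that shared no base with a peak of the wild-type PCGF3 list, and they number 9457 of 9659 USF1 peaks. The other 202 USF1 peaks overlapped PCGF3 and serve as the comparison. The members were chosen by measured values, the wild-type USF1 and PCGF3 peak calls, so USF1 strength and PCGF3 overlap are described here and not tested. The series measured transcripts and chromatin in E14 cells and in clones in which Cas9 had removed Polycomb group ring finger (Pcgf) genes. Transcripts came from 14 poly(A) RNA-seq libraries, 2 in each of 7 groups, which were wild-type, Pcgf1-/-, Pcgf2/4-/-, Pcgf3/5-/-, Pcgf6-/-, Pcgf1/2/4-/- and Pcgf3/5/6-/-. PCGF4 is the product of Bmi1. Double and triple knockouts were edited from single-knockout clones, so a genotype may rest on 1 clone. The E14 cultures were kept on gelatin, with serum, LIF and small-molecule blockers of the kinases GSK3β and MEK1/2. The peak lists used here are 1 per antibody and line, except for RING1B in Pcgf1/2/4-/-, which had 2. Some PCGF3 and PCGF6 lists came from the Ring1a-/-;Ring1b fl/fl line (here Ring1a-/-_Ring1bfl) and Ring1a/b-/-, and others from cells given lentiviral short hairpin RNAs against Usf1, Usf2, Mga or E2f6, or a control hairpin (shCtr).

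USF1 is a basic helix-loop-helix leucine zipper factor that binds as a dimer, often with USF2, to the E-box CACGTG, a hexamer that is its own reverse complement. It is known for activating genes of glucose and lipid metabolism and is expressed in most tissues. PCGF3 is the ring finger subunit of a variant of Polycomb repressive complex 1 (PRC1), in which RING1A or RING1B places ubiquitin on histone H2A. PCGF6 belongs to another variant PRC1, which reaches DNA through MGA and E2F6 and holds germ cell genes silent in embryonic stem cells. WDR5 is a subunit of the complexes that methylate lysine 4 of histone H3 and is also found with PCGF6, and H3K4me3 marks active and poised promoters.

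The DNA under some of the strongest USF1 summits is shown first, because most sites with and without PCGF3 hold an E-box. Only peaks with an E-box near the summit were chosen, so the lines do not show how common it is. Nrd1, Pak6 and Gm6415, named below, had none within 250 bases and are left out, as are some strong sites with one. Each line gives the nearest gene, the position on the plus strand of build mm9 (NCBIM37) and 60 bases 5′ to 3′, centred on the E-box nearest the summit, which is in capitals. The first 5 are promoter sites without PCGF3, the next 2 are sites without PCGF3 away from promoters, and the last 2 are promoter sites with PCGF3.
Tasp1 (chr2:139892565-139892624): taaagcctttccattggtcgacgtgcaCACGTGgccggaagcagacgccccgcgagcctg
Phc2 (chr4:128331862-128331921): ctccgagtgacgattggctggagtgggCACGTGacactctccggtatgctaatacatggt
Mapre1 (chr2:153566871-153566930): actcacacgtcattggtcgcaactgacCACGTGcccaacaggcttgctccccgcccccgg
Ip6k1 (chr9:107904756-107904815): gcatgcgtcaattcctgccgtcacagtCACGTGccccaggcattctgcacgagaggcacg
Osbpl8 (chr10:110601730-110601789): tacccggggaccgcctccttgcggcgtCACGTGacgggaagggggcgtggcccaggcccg
Gm5218 (chr15:81353710-81353769): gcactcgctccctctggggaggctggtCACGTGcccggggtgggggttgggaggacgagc
Ak3 (chr19:29138474-29138533): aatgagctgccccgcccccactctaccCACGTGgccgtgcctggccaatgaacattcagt
Zmym6 with PCGF3 (chr4:126754527-126754586): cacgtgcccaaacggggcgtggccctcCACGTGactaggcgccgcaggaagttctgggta
Zbtb40 with PCGF3 (chr4:136604759-136604818): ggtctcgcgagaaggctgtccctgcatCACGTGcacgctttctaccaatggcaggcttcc

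The strongest promoter site without PCGF3 lay 53 bases upstream of Tasp1, the gene of the protease that cleaves MLL proteins, on chromosome 2 (peak 139892115 to 139892956), with a USF1 enrichment of 76.8-fold over input. This enrichment is the peak caller's value as the authors deposited it. Next came Nrd1, a metalloprotease gene, at 73.9-fold, Phc2, which encodes a Polycomb PRC1 subunit, at 73.4-fold, and C87436 at 72.6-fold. Mapre1, for a microtubule plus-end protein, had 72.4-fold, Depdc1b 71.0-fold and the noncoding gene 6720401G13Rik 66.8-fold. Pias4, a SUMO ligase gene, had 65.5-fold, Ip6k1, an inositol hexakisphosphate kinase gene, 64.0-fold and Osbpl8, an oxysterol-binding protein gene, 63.9-fold. All 10 summits lay within 158 bases of the gene's start. Of the 10, 9 had an E-box within 9 bases of the summit, and the Nrd1 peak had none within 250 bases. H3K4me3 overlapped 9 of the 10, with Phc2 the exception, PCGF6 overlapped Tasp1 alone, WDR5 overlapped Tasp1 and Ip6k1, and RING1B overlapped none of the 10. Away from promoters the 5 strongest were upstream of Pak6 (62.3-fold, no E-box), in an intron 10310 bases from Gm6415 (61.2-fold, no E-box), and near Gm5218 (61.0-fold), Gm16737 (60.7-fold) and Ak3 (59.5-fold). Strong sites with PCGF3, at Atp6v0b, Zmym6, Clcn6 and Zbtb40, had 90.3, 89.4, 89.2 and 88.4-fold.

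USF1 enrichment was lower where no PCGF3 peak was called. The median was 8.45-fold without PCGF3 (quartiles 6.24 and 13.7, highest 76.8, n = 9457 peaks) and 51.5-fold with PCGF3 (quartiles 40.1 and 64.1, n = 202 peaks). The ranges overlapped, but from 5-fold to 10-fold lay 56.2% of the members and 3.47% of the comparison peaks. Peaks without PCGF3 were narrower, with a median width of 332 against 731 bases, and the 100 bases around their summits held less G and C, with a median of 54.0% against 66.0%. Promoter members had a median of 10.0-fold and members elsewhere 7.92-fold. Members with an E-box in those 100 bases had 9.15-fold and those without one 7.36-fold. No member was among the 10 strongest USF1 peaks, 7 were among the strongest 50, and the first of them ranked 14. Among the strongest 100 USF1 peaks 26 lacked PCGF3, among ranks 101 to 200 it was 66, among ranks 201 to 500 it was 244, and beyond rank 1000 at least 99.6% of the peaks in each bin lacked it. PCGF3 overlap thus fell steeply with USF1 rank.

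**Figure D1:**
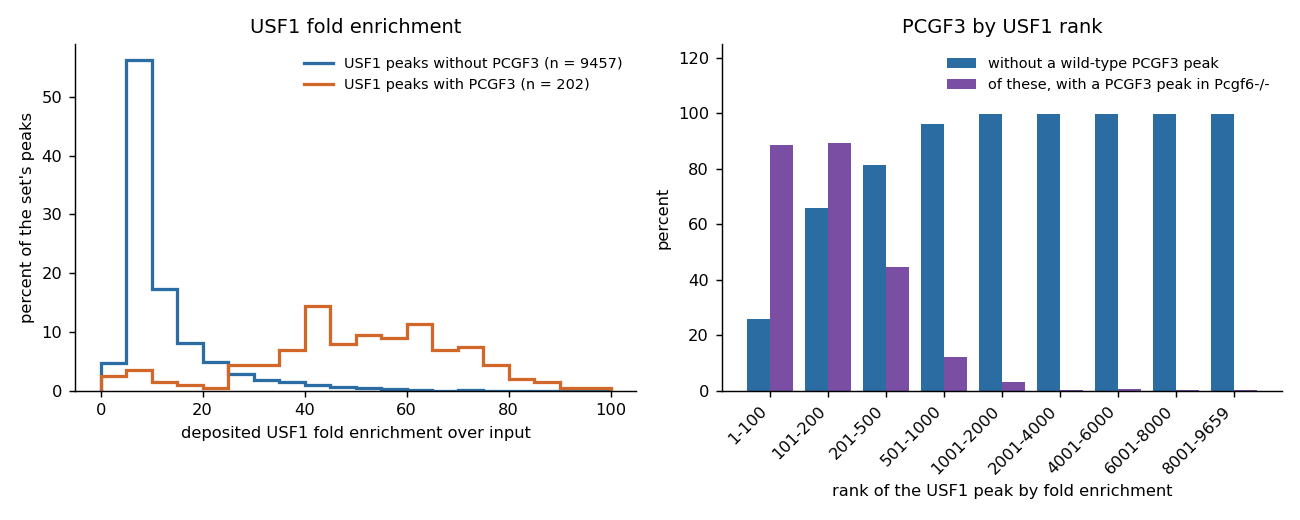
Left, the share of peaks (percent, in bins of 5-fold) at each deposited USF1 fold enrichment over input for the 9457 USF1 peaks without PCGF3 and the 202 with it, whose medians are 8.45 and 51.5. Right, by rank of USF1 enrichment, the percent of USF1 peaks without a wild-type PCGF3 peak and, of these, the percent with a PCGF3 peak in Pcgf6-/-, which fall from 88.5% in ranks 1 to 100 to 0.121% in ranks 8001 to 9659.

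The cut between the sets was an overlap of 1 base. Just outside it were members near AY036118 (289 bases from a PCGF3 peak, USF1 1.82-fold), Gm15247 (299 bases, 5.59-fold), Ptpdc1 (362 bases, 11.4-fold) and Arid5b (690 bases, 23.2-fold). Inside it the smallest overlap was 200 bases, which is also the smallest peak width over all lists, so no comparison peak lay close to the cut. Peaks with this overlap were near 7SK (64.1-fold), Laptm4b (44.1-fold), Alg1 (43.3-fold) and Wdr62 (42.2-fold), among others. Of the members, 11 had a PCGF3 peak within 1 kb and 52 within 10 kb, and the median gap to the nearest PCGF3 peak was 2651 kb. The PCGF3 list was short: it held 223 peaks, of which 205 overlapped USF1. It was also not free of background, because 16 of the 202 comparison peaks and 2 members overlapped the 21 PCGF3 peaks called in Pcgf3/5-/-, the line meant to lack the protein.

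Some members did have PCGF3 peaks in other lines. In Pcgf6-/- cells, where 612 PCGF3 peaks were called, 312 members overlapped one (3.30%, Wilson 95% interval 2.96 to 3.68%), beside 190 of the 202 comparison peaks (94.1%, 89.9 to 96.6%). Such intervals cover counting error within a list and not the spread between cultures. These 312 members were strong USF1 sites, with a median of 40.4-fold, 88.5% held an E-box and 67.3% lay at promoters. They included 23 of the 26 members in the top 100 and 59 of the 66 in ranks 101 to 200, and all 10 promoter sites named above as well as the sites near Pak6, Gm5218 and Ak3. In the other lines few members had PCGF3: 18 in Pcgf1-/-, 11 in Pcgf2/4-/-, 15 in Ring1a-/-_Ring1bfl, 5 in Ring1a/b-/- and 0 in shCtr, where 44 peaks were called. The lists differ in length, so these counts show no change in binding between lines. With 9126 members left after those with PCGF3 in any library other than Pcgf3/5-/- were removed, the median enrichment was 8.18-fold.

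Most sites without PCGF3 lay away from gene starts. The summit was within 2.5 kb of an annotated start, here called a promoter, in 3020 members (31.9%, 31.0 to 32.9%), against 151 of 202 sites with PCGF3 (74.8%, 68.3 to 80.2%). The contrast widened closer in: 19.6% of members (18.8 to 20.4%) and 69.3% of the comparison (62.6 to 75.3%) were within 500 bases. Of the 6437 members outside promoters, 47.2% were in introns, 44.9% were intergenic and 7.95% were in exons. Some 1189 members (12.6%) were over 50 kb from any start, against 5 comparison peaks (2.48%). The promoter share followed USF1 strength within the members as well, from 76.9% in ranks 1 to 100 and 44.2% in ranks 1001 to 2000 to 24% in the weakest bin.

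Chromatin marks were less frequent at sites without PCGF3. H3K4me3 overlapped 4423 members (46.8%, 45.8 to 47.8%) and 179 comparison sites (88.6%, 83.5 to 92.3%). PCGF6 overlapped 365 members (3.86%, 3.49 to 4.27%) and 59 comparison sites (29.2%, 23.4 to 35.8%). The PCGF6 antibody was not free of background either. Its list in Pcgf6-/- cells overlapped 54 members (0.571%) and 36 comparison sites (17.8%, 13.2 to 23.7%), so the 29.2% is not all shown to be PCGF6 binding. WDR5 overlapped 453 (4.79%, 4.38 to 5.24%) and 68 (33.7%, 27.5 to 40.4%), and RING1B 444 (4.69%, 4.29 to 5.14%) and 40 (19.8%, 14.9 to 25.8%). In all 4 cases the intervals of the 2 sets, which cover counting error only, do not overlap. Comparison peaks were also wider, at a median of 731 against 332 bases, and 1 shared base counted as overlap. The part of width in these shares was not tested. No wild-type peak of these 4 or of PCGF1, PCGF2, SUZ12, H3K27me3, H2AK119ub1 or H3K36me3 touched 4545 members (48.1%, 47.1 to 49.1%), and 13 comparison sites were in that state (6.44%, 3.80 to 10.7%). Those bare members were weaker USF1 sites, with a median of 7.39-fold, yet 68.0% of them held an E-box.

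The sets also differed among promoters alone. There H3K4me3 overlapped 82.3% of members (80.9 to 83.6%) and 96.7% of comparison sites (92.5 to 98.6%), while 40.8% of windows of 335 bases at all annotated starts touched it (n = 37207). PCGF6 overlapped 8.41% of promoter members (7.47 to 9.45%), 33.1% of comparison sites (26.1 to 41%) and 2.25% of all starts. WDR5 overlapped 11.9% (10.7 to 13.1%), 39.1% (31.7 to 47.0%) and 4.22%. Promoter members thus stood between all starts and PCGF3-bound USF1 promoters for these 3 lists. RING1B at promoters overlapped 10.8% of members (9.77 to 12%), 22.5% of comparison sites (16.6 to 29.8%) and 8.01% of all starts. SUZ12, a subunit of PRC2, overlapped 9.07% of promoter members (8.10 to 10.1%) and 11.9% of comparison sites (7.67 to 18.1%), 2 intervals that overlap. Outside promoters the member shares were 30.1% for H3K4me3, 1.72% for PCGF6, 1.48% for WDR5 and 1.82% for RING1B, against 64.7%, 17.6%, 17.6% and 11.8% of 51 comparison sites. USF1 strength also moved with these marks: the median was 10.4-fold on H3K4me3, 11.2-fold on PCGF6, 13.0-fold on WDR5 and 9.70-fold on RING1B. Of the 26 members in ranks 1 to 100, 88.5% touched H3K4me3, 15.4% WDR5, 7.69% PCGF6 and none RING1B. Of the 66 in ranks 101 to 200, 97.0% touched H3K4me3, 31.8% WDR5 and 12.1% each PCGF6 and RING1B. The strongest members thus reached the H3K4me3 share of the comparison sites (88.6%), and those of ranks 101 to 200 came near their WDR5 share (33.7%).

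**Figure D2:**
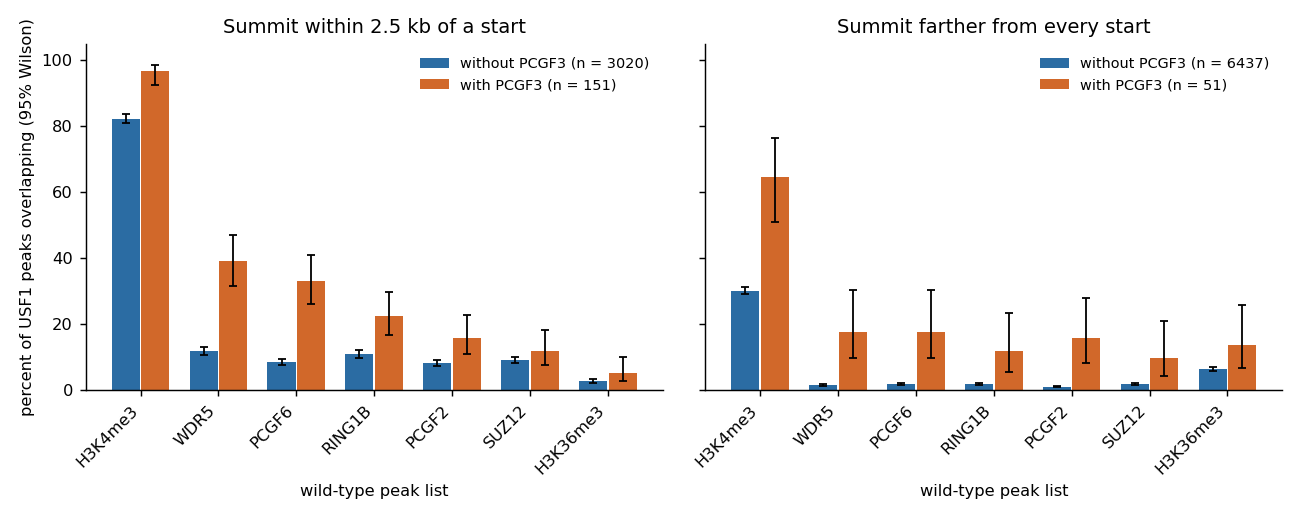
Percent of USF1 peaks without and with PCGF3 that share at least 1 base with a peak of each wild-type list, for summits within 2.5 kb of a start (left; n = 3020 and 151) and farther away (right; n = 6437 and 51), with Wilson 95% intervals as bars. At promoters H3K4me3 is at 82.3% and 96.7%, and PCGF6 and WDR5 show the widest gaps between the sets.

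The co-bound members were few but made up a visible part of the smaller lists. They took 19.5% of the 1868 PCGF6 peaks and 20.8% of the 2176 WDR5 peaks, but 8.05% of the 5454 RING1B and 11% of the 40094 H3K4me3 peaks. PCGF6 and WDR5 met at 190 members. Of the 365 members on PCGF6, 156 also had RING1B and 209 did not. The lists of other lines varied in length, so their counts are given with the list size and show no change in binding. For PCGF6, 1202 members overlapped in Pcgf1-/- (5528 peaks), 2029 in Pcgf2/4-/- (12842 peaks), 1284 in shCtr (7451 peaks), 338 in Pcgf3/5-/- (1571 peaks) and 54 in Pcgf6-/- itself (1042 peaks). In the cells labelled shMGA the count was 29 members (468 peaks), in shMGAdHLH 112 (733 peaks) and in shE2F6-MGAdHLH 27 (355 peaks), and after hairpins against E2f6 1.26% of members overlapped (557 peaks). RING1B overlapped 507, 605 and 514 members in Pcgf1-/-, Pcgf2/4-/- and Pcgf3/5-/-, with 5696, 5607 and 5586 peaks. It overlapped 297 in Pcgf6-/- with a list of like length (5563 peaks), 343 and 329 in the 2 libraries of Pcgf1/2/4-/- (2051 and 1814 peaks) and 169 in Pcgf3/5/6-/- (3068 peaks). H3K4me3 overlapped 46.8% to 51.7% of members in the wild-type and the other 4 lines with a list used here.

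The E-box was present in most members and closer to the summit where PCGF3 was bound. In the 100 bases around the summit CACGTG was found in 6416 members (67.8%, 66.9 to 68.8%) and 176 comparison sites (87.1%, 81.8 to 91.1%). Windows of that size at all annotated starts held it in 2.56%, and windows 500 bases to the left or right of the member summits in 1.64% and 1.59%. H3K4me3 peaks without USF1 held it in 1.37% and PCGF6 peaks without USF1 in 6.58%. The E-box share of members was 69.8% (68.1 to 71.4%) at promoters and 66.9% (65.8 to 68.1%) elsewhere. It fell with USF1 rank from 84.6% and 95.5% in the first 2 bins to 57.7% in the last. The median distance from summit to the nearest E-box within 250 bases was 13 bases in members and 7 in comparison sites. The base before CACGTG, read on both strands, was T in 45.9% of member sites, in 65.1% of comparison sites and in 35.1% of E-boxes at starts. Of the other motifs searched on both strands in these windows, CCAAT was in 17.2% of members, 19.3% of comparison sites and 14.9% of starts, and the cyclic AMP response element TGACGTCA in 0.603%, 1.98% and 0.825%. A match is a description of sequence and not a measured binding site.

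**Figure D3:**
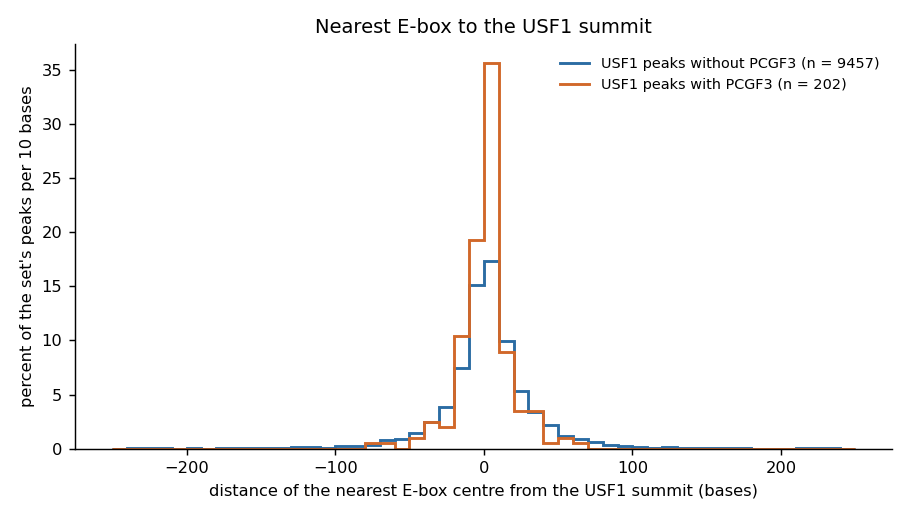
Distance in bases from the USF1 summit to the centre of the nearest CACGTG within 250 bases, as the percent of each set's peaks per 10 bases. In the 10 bases that begin at the summit there are 17.3% of the members and 35.6% of the 202 peaks with PCGF3.

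Transcripts were then read at the nearest genes. A member gene has a member summit within 2.5 kb of its start and no PCGF3-bound USF1 peak there, and the count table held 2824 of them, 13.4% of the 21001 annotated genes in it. Of these, 2592 passed the filter on low counts, beside 160 genes with a PCGF3-bound USF1 promoter and 15464 genes in all. Genes that passed only through a group in which they are high are among them, so the counts below are descriptions. The libraries held 2147968 to 7848161 counts assigned to genes. Nothing in the labels says that the 2 libraries of a group were separate cultures, so p-values measure the spread between these libraries, which may be technical. The 2 wild-type libraries differed by less than sampling noise (chi-square per degree of freedom 0.951 over 13931 genes, against 1.19 to 21.3 in the other groups). They are printed one by one, and counts are also given with the pair summed as 1 sample. Pcgf1 fell in both lines edited for it, and Pcgf6 had no count in Pcgf6-/-. In the libraries labelled Pcgf3/5/6-/- it stood at 42.0 and 37.2 CPM (counts scaled to a common library total), against 36.2 and 34.3 in wild-type (log2 fold change 0.17, adjusted p = 0.338). Pcgf3 did not pass the threshold in the libraries labelled Pcgf3/5-/- (-0.40, adjusted p = 0.242), Pcgf5 fell there by 1.22 (adjusted p = 0.00175) but also by 1.28 in Pcgf1-/- and by 1.17 in Pcgf2/4-/-, and neither Pcgf3 (-0.23) nor Pcgf5 (0.33) passed in Pcgf3/5/6-/-. Neither Pcgf2 nor Bmi1 passed as lowered in either line edited for them. An edit need not lower its mRNA, so groups are named as labelled. All 18 pluripotency markers were detected in wild-type (summed 3534 and 3537 CPM, 3179 to 4739 in the knockouts), and 5 of 7 primitive endoderm markers were at 0. Marker sums use library totals without the scaling factors applied to the CPM of single genes. Trophoblast markers summed to 204 and 215 CPM in wild-type and 159 to 834 in the knockouts, and neural markers to 89.4 and 89.6 and to 8.68 to 201. Their part in the values below was not tested, and in bulk RNA fewer cells of a type and less RNA per cell cannot be told apart. All 6 comparisons share the wild-type libraries, so their values are given side by side, and no difference between knockouts was tested.

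In Pcgf1-/-, 334 member genes rose and 476 fell at an adjusted p below 0.05 (edgeR quasi-likelihood, Benjamini-Hochberg over all genes tested). The 810 changed genes are 31.2% of the 2592, and 32.3% of all genes tested were called. By direction 12.9% of members rose, where 13.9% of all genes did, and 18.4% fell, the same as the 18.4% of all genes. The share of members is close to that background. Ddit4, a stress-induced inhibitor of mTORC1, had 27.8 and 20.3 CPM against 3.14 and 3.66 in wild-type, with both knockout libraries above both wild-type ones (log2 fold change 2.84, SE 0.22, adjusted p = 7.69e-07). The uncharacterised 1700010I14Rik had 10.4 and 7.54 CPM against 0.285 and 0.141, a ratio of 44.5 with a counting interval of 14.9 to 219. Elavl4, which encodes a neuronal RNA-binding protein, went the other way, from 7.70 and 7.60 CPM to 0.328 and 0, a ratio of 34.5 (11.5 to 170). Vnn1, a pantetheinase gene, went from 2.28 and 2.53 CPM to 0.109 and 0, a ratio of 32.6 (5.46 to 1324). The count of changed members dropped to 463 or 464 when one wild-type library or the other was left out, to 529 without Pcgf1-/- replicate 1 and to 521 with the wild-type pair summed. The raised share of the calls was 41.2%, but 59.3% without Pcgf1-/- replicate 2 and 52.5% when no other genotype entered the fit.

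In Pcgf2/4-/-, 180 member genes rose and 308 fell, 18.8% of the members, and 21.6% of all genes were called. The share of members that rose was 6.94%, against 8.10% of all genes, and 11.9% fell, against 13.5%. Kctd15, a gene of the BTB-domain KCTD family, had 9.70 and 11.1 CPM in wild-type and no count in either knockout library, at least 35.4-fold lower against a floor of 3 counts over the group. Fam183b went from 4.99 and 4.92 CPM to no count, at least 16.9-fold lower. Plb1, which encodes phospholipase B1, rose from 0.285 and 0.281 CPM to 1.26 and 2.04 (2.61, SE 0.56, edgeR adjusted p = 0.00469), and its adjusted p ranged from 0.00331 to 0.156 over the alternatives, the last without Pcgf2/4-/- replicate 2. Tubb3, a neuronal tubulin gene with a 22.4-fold USF1 peak, fell from 80.9 and 83.5 CPM to 8.38 and 14.7 (-2.69, SE 0.17, edgeR adjusted p = 6.34e-07). Its span overlaps Gm20388 on the same strand, so its counts are uncertain. It is also one of the 6 neural markers, whose lowest sum, 8.68 CPM, was in 1 of these libraries. The count of 488 depended on single libraries: leaving out one wild-type library or the other gave 232 and 245, and there were 894 without Pcgf2/4-/- replicate 2, 290 with the wild-type pair summed and 130 when no other genotype entered the fit. The raised share of 36.9% became 59.0% without Pcgf2/4-/- replicate 1.

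In Pcgf3/5-/-, the line edited for Pcgf3 and Pcgf5, 235 member genes rose and 254 fell. The 489 changed genes are 18.9% of the members, and 21.6% of all genes were called. By direction 9.07% rose, against 11.1% of all genes, and 9.80% fell, against 10.4%. Of the 160 genes with PCGF3 at the USF1 promoter 12 rose (7.50%) and 15 fell (9.38%). Plb1 had 11 and 11.1 CPM (5.17, SE 0.37, edgeR adjusted p = 7.94e-07), clear of the wild-type values given above. Il1r2, a decoy receptor gene for interleukin-1, had 2.01 and 0.384 CPM against no count in wild-type, at least 6.30-fold higher, and its adjusted p of 0.0219 ranged from 0.00459 to 0.234 over the alternatives, the last without Pcgf3/5-/- replicate 1. C2, a complement component gene, fell from 6.28 and 7.03 CPM to 0.401 and 0.959 (-3.35, SE 0.42, edgeR adjusted p = 8.85e-05), though the annotation overlaps it with other coding genes. Tcam1, a testicular adhesion molecule gene, went from 1.57 and 1.13 CPM to no count, at least 5.69-fold lower. The count was 222 and 204 when one wild-type library or the other was dropped, 261 and 271 when a knockout library was dropped and 268 with the wild-type pair summed. Without Pcgf3/5-/- replicate 2 the raised share went from 48.1% to 70.5%.

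In Pcgf6-/-, 439 member genes rose and 614 fell, 40.6% of the members, and 46.5% of all genes were called. The split differed from the background: 16.9% of members rose, against 27.8% of all genes, and 23.7% fell, against 18.6%. Member genes also had a higher wild-type level, with a median log2 of CPM plus 0.5 of 5.94 against 4.84 over all genes. The part of this level in the split, here and in the other genotypes, was not tested. Rises past 2-fold were seen in 9.68% of members and in 19.7% of all genes. The median log2 fold change was -0.079 in members and 0.026 over all genes, and with relative log expression (RLE) factors it was -0.044 and 0.060. The 160 PCGF3-bound genes had 15.0% raised and 26.9% lowered, so the lower raised share was not shown to belong to sites without PCGF3. Il1r2 had 22.7 and 22.2 CPM against no count in wild-type, at least 106-fold higher. Sycp2, which encodes a synaptonemal complex protein of meiotic cells, had 20.2 and 22.8 CPM against none, at least 101-fold higher, and its promoter carried PCGF6, WDR5 and RING1B peaks. Osm, the gene of the cytokine oncostatin M, fell from 34.1 and 30.0 CPM to 0.498 and 0 (-6.75, SE 0.48, edgeR adjusted p = 6.91e-08). Cdx2, a homeodomain factor of the trophectoderm whose promoter had all 4 marks, fell from 71.1 and 77.8 CPM to 4.61 and 6.13 (-3.80, SE 0.16, edgeR adjusted p = 4.52e-10). Cdx2 is also 1 of the 6 trophoblast markers. The count was 1589 when no other genotype entered the fit and 831 with the wild-type pair summed.

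In Pcgf1/2/4-/-, 479 member genes rose and 597 fell, 41.5% of the members, and 37.0% of all genes were called. The raised share was 18.5% against 14.4% of all genes, and the lowered share 23.0% against 22.6%. The split depended on scaling: 44.5% of the member calls were raised with the main factors and 55.2% with DESeq2. The median over members was -0.041 and over all genes -0.110, or 0.039 and -0.024 with RLE factors. Plk5, a gene of the polo-like kinase family, rose from 2.85 and 2.39 CPM to 31.0 and 31.6 (3.57, SE 0.40, edgeR adjusted p = 2.14e-05). 1700010I14Rik had 1.07 and 3.61 CPM, a ratio of 11.5 (2.96 to 65.1), and its adjusted p of 0.0160 ranged from 0.00241 to 0.353 over the alternatives, the last without Pcgf1/2/4-/- replicate 2. Gm1673 went from 7.70 and 9.14 CPM to 0.534 and 0, a ratio of 34.5 (6.07 to 1372). Tcam1 had no count, at least 1.83-fold lower, a bound set by the depth of these 2 libraries. The count was 601 and 639 when one wild-type library or the other was dropped, 541 and 570 when a knockout library was dropped, 672 with the wild-type pair summed and 1642 when no other genotype entered the fit.

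In the libraries labelled Pcgf3/5/6-/-, 546 member genes rose and 781 fell, 51.2% of the members, and 53.3% of all genes were called. The raised share was 21.1% of members against 28.0% of all genes, and the lowered share 30.1% against 25.3%. The medians were -0.067 for members and 0.048 for all genes, and 0.007 and 0.122 with RLE factors. PCGF3-bound genes had 11.9% raised and 40.0% lowered. Whether the 2 sets of promoters differ was not tested. Il1r2 had 10.4 and 16.9 CPM, at least 63.8-fold above wild-type, and Sycp2 8.22 and 7.77, at least 37.7-fold. Hoxc4, a homeobox gene that has close relatives in its cluster, went from 5.42 and 6.19 CPM to 0.316 and 0, a ratio of 35.6 (6.21 to 1422). Its USF1 peak, 2283 bases past the start, was 35.9-fold and held no E-box within 250 bases. Glb1l, a gene related to lysosomal beta-galactosidase, fell from 29.3 and 26.2 CPM to 0.316 and 1.69 (-4.79, SE 0.47, edgeR adjusted p = 1.59e-06).

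**Figure D4:**
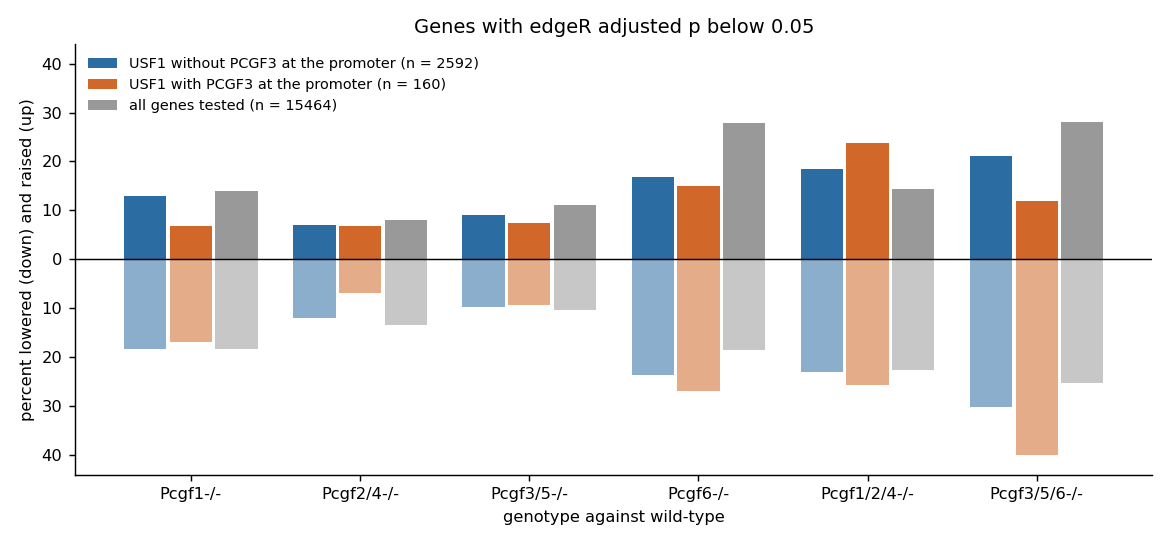
Percent of genes raised (up) and lowered (down) at an edgeR adjusted p below 0.05 in each genotype against wild-type, for 2592 member genes, 160 genes with PCGF3 at the USF1 promoter and all 15464 genes tested. In Pcgf6-/- 16.9% of member genes and 27.8% of all genes are raised.

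Member genes were also split by the chromatin at the peak, in Pcgf6-/-, where 27.8% of all genes rose and 18.6% fell. Among member genes as a whole 16.9% rose and 23.7% fell. Of 235 tested member genes with PCGF6 at the peak 75 rose (31.9%) and 36 fell (15.3%). These shares are near those of all genes, but the raised share is above that of members as a whole. Of 260 with RING1B 109 rose (41.9%) and 57 fell (21.9%). Genes with PCGF6 and no USF1 at the promoter rose in 44.6% of cases and fell in 9.62%, and genes with RING1B and no USF1 rose in 48.0% and fell in 15.6%. Member genes with a USF1 peak that lacked H3K4me3 rose in 35.5% and fell in 19.9% (n = 251). The 2341 with H3K4me3 rose in 15.0% and fell in 24.1%. Genes with H3K4me3 and no USF1 rose in 24.8% and fell in 19.0%. The strong members, at 20-fold or more, were raised in 12.6% and lowered in 22.3% (n = 708), and those with a PCGF3 peak in Pcgf6-/- in 14.7% and 21.1% (n = 218). Genes whose nearest member lay outside promoters had 24% raised and 25% lowered (n = 2075). These shares overlap in their genes and were not tested against each other. Wild-type levels differed between the groups as well. The median log2 of CPM plus 0.5 was 2.71 for members with RING1B, 5.12 with PCGF6, 3.49 without H3K4me3 and 6.07 with it.

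Functional lists were read next, and their genes were chosen with earlier results of these data known. Members without PCGF3 at the promoter were 13.4% of all annotated genes, and 24 of 40 lysosome and autophagy genes, while 10 more of the 40 had PCGF3 at a USF1 promoter, among them the cathepsin genes Ctsa and Ctsd, the hexosaminidase gene Hexa and Lamp1. They were 12 of 24 E-box binding helix-loop-helix factors, among them Usf1 itself, 13 of 29 genes of mitochondrial import, chaperones and mitochondrial DNA, 13 of 30 nucleolar genes and 8 of 19 circadian clock genes. Of 29 glucose and lipid genes 11 were members, and of 14 PCGF3/5 complex partners 5. Of 30 cell cycle genes 5 were members, of 17 pluripotency factors 3 and of 20 germ cell genes 5. In the order Pcgf1-/-, Pcgf2/4-/-, Pcgf3/5-/-, Pcgf6-/-, Pcgf1/2/4-/- and Pcgf3/5/6-/-, the shares of all genes raised were 13.9%, 8.10%, 11.1%, 27.8%, 14.4% and 28.0%, and lowered 18.4%, 13.5%, 10.4%, 18.6%, 22.6% and 25.3%. In that order the 12 helix-loop-helix members gave 3, 0, 1, 2, 4 and 5 raised and 1, 1, 0, 2, 3 and 3 lowered. Mxd4, a partner of MAX, rose in 5 of the 6, and Mga, the MAX partner that anchors the PCGF6 complex, fell in Pcgf6-/- and both triple knockouts. The 11 glucose and lipid members gave 0, 0, 0, 0, 5 and 2 raised and 3, 2, 1, 1, 3 and 1 lowered. The 8 clock members gave 1, 0, 1, 1, 1 and 2 raised and 3, 2, 1, 3, 3 and 1 lowered. The 5 partner genes gave 2, 0, 0, 1, 1 and 2 raised and 1, 1, 0, 2, 2 and 0 lowered, so none of them passed in Pcgf3/5-/-. With 5 to 12 genes a list, nothing particular to these lists is read from such counts.

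Of the 24 lysosomal members 2 rose and 8 fell in Pcgf6-/-, where 27.8% of all genes rose and 18.6% fell. In Pcgf1/2/4-/- 10 rose and 4 fell (all genes 14.4% and 22.6%), and in Pcgf3/5/6-/- 5 rose and 11 fell (all genes 28.0% and 25.3%). In Pcgf1-/-, Pcgf2/4-/- and Pcgf3/5-/- they gave 1 and 2, 2 and 0, and 1 and 2. The median log2 fold change was 0.38 in Pcgf1/2/4-/- and -0.22 in Pcgf6-/-, where members as a whole had -0.041 and -0.079. The whole list of 40 lysosome and autophagy genes had medians of 0.40 and -0.22. Of these genes 18 rose and 6 fell in Pcgf1/2/4-/-, and 4 rose and 11 fell in Pcgf6-/-. In these 2 comparisons nothing particular to the USF1 members of the list is therefore read from the values. Cln3, a lysosomal membrane protein gene with a 42.0-fold USF1 peak 2421 bases past its start, had 135 and 127 CPM in wild-type. It fell in Pcgf3/5-/- to 95.6 and 83.2 (-0.55, SE 0.12, edgeR adjusted p = 0.00382), in Pcgf6-/- to 89.5 and 79.1 (-0.64, SE 0.12, edgeR adjusted p = 3.67e-04) and in Pcgf3/5/6-/- to 63.2 and 68.9 (-0.99, SE 0.12, edgeR adjusted p = 1.23e-05). Its span overlaps that of Apobr on the other strand, so its counts are uncertain. Atp6v0d1, a proton pump subunit gene with a 35.1-fold peak, had 117 and 116 CPM. It fell in Pcgf6-/- to 79.3 and 84.1 (-0.52, SE 0.13) and rose in Pcgf1/2/4-/- to 226 and 207 (0.89, SE 0.13) and in Pcgf3/5/6-/- to 182 and 181 (0.64, SE 0.13), with edgeR adjusted p-values of 0.00427, 1.88e-04 and 8.57e-04.

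Among the metabolic and clock members, Insig1, which retains sterol regulatory proteins in the endoplasmic reticulum and has a 41.1-fold peak, had 29.8 and 34.3 CPM. It fell to 13.1 and 11 in Pcgf1-/- (-1.38, SE 0.20, edgeR adjusted p = 1.48e-04) and rose to 76.5 and 75 in Pcgf3/5/6-/- (1.24, SE 0.18, edgeR adjusted p = 4.98e-05). Cpt1a, the carnitine transferase of mitochondrial fatty acid uptake with a 51.7-fold peak, had 103 and 109 CPM and fell to 59.9 and 58.2 in Pcgf6-/- (-0.84, SE 0.13, edgeR adjusted p = 1.21e-04). Srebf1, the gene of a sterol-regulated helix-loop-helix factor, passed in none of the 6 comparisons, with an edgeR adjusted p of 0.0832 in Pcgf6-/- as the lowest. Cry1, a repressor of the circadian clock with a 38.5-fold peak on H3K4me3, PCGF6, WDR5 and RING1B, had 26.4 and 25.3 CPM. It passed the threshold in all 6 genotypes, rising to 129 and 140 CPM in Pcgf1/2/4-/- (2.38, SE 0.11, edgeR adjusted p = 3.05e-08) and to 75.8 and 77.4 in Pcgf3/5/6-/- (1.57, SE 0.11). It also rose in Pcgf1-/- (0.58), Pcgf3/5-/- (0.65) and Pcgf6-/- (0.41) and fell in Pcgf2/4-/- to 18 and 21.2 (-0.36, SE 0.12, edgeR adjusted p = 0.0429).

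In Pcgf1/2/4-/-, where 14.4% of all genes rose and 22.6% fell, 6 of 13 nucleolar members rose and 1 fell, and 6 of 13 mitochondrial members rose and none fell (Hspa9, Hspd1, Hspe1, Lonp1, Timm10 and Timm44 rose). Of the whole lists 9 of 30 nucleolar genes rose and 4 fell, and 12 of 28 mitochondrial genes tested rose and 1 fell. The members' medians of 0.46 and 0.43 compare with -0.041 over all members and with 0.28 and 0.41 over the whole lists. Ncl, the nucleolin gene, went from 691 and 692 CPM to 1253 and 1159 (0.80, SE 0.26, edgeR adjusted p = 0.0289), and Lonp1, a mitochondrial protease gene, from 65.5 and 64.8 to 108 and 117 (0.78, SE 0.11, edgeR adjusted p = 9.79e-05). Of 5 cell cycle members 3 rose in Pcgf1/2/4-/-, among them the replicative helicase genes Mcm7 and Mcm2, and E2f1 fell. Of the whole cell cycle list 14 of 30 genes rose and 6 fell, with a median of 0.61 beside 0.62 in the members. Nothing particular to the members is therefore read from these values. The annotation overlaps Mcm7 with Ap4m1 and Cops6, Usf1 with Tstd1, Tex10 with Invs, Srebf1 with Rai1 and Ak3 with Cdc37l1, so the counts of these genes are uncertain too. Other named genes overlap annotated genes that are not protein-coding, among them Il1r2, Plb1, Kctd15, Glb1l, Lin28a, Usf2, Pcgf5, C87436, Tasp1 and Ncl. The part of these overlaps in their counts was not tested. Usf1 itself had 149 CPM in both wild-type libraries and 209 and 187 in Pcgf1/2/4-/- (0.41, SE 0.13, edgeR adjusted p = 0.0277). Usf2, which is not a member, fell in Pcgf6-/- from 15.1 and 18.3 to 10.1 and 9.50 (-0.77, SE 0.20, edgeR adjusted p = 0.00572). Among the PCGF3/5 partners, Tex10 had a 52.8-fold peak and Auts2, which encodes an activator subunit of that complex, a 21.4-fold one. Auts2 went from 20.7 and 17.2 CPM to 36 and 37.9 in Pcgf3/5/6-/- (0.96, SE 0.17, edgeR adjusted p = 2.95e-04) and to 10.1 and 10.8 in Pcgf1/2/4-/- (-0.85, SE 0.23, edgeR adjusted p = 0.0116).

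All 5 germ cell members, Dazl, Slc25a31, Tdrd1, Tex101 and Zcwpw1, rose in Pcgf6-/- and in Pcgf3/5/6-/-, with medians of 2.93 and 3.13. Their medians in Pcgf1-/-, Pcgf2/4-/-, Pcgf3/5-/- and Pcgf1/2/4-/- were 0.25, 0.24, -0.40 and -0.43. Of the 20 genes tested in the whole list 19 rose in Pcgf6-/- and 18 in Pcgf3/5/6-/-, where 27.8% and 28.0% of all genes rose. The list was drawn from genes known to be bound by the PCGF6 complex, so its direction is no independent finding. Dazl, an RNA-binding protein gene of germ cells with a 16.6-fold USF1 peak on all 4 marks, went from 30.2 and 31.5 CPM to 171 and 191 in Pcgf6-/- (2.55, SE 0.13, edgeR adjusted p = 2.20e-09). Zcwpw1, a meiotic histone reader gene with a 21.4-fold peak and no PCGF6, went from 38.5 and 36.7 to 73.6 and 81.7 (1.04, SE 0.14, edgeR adjusted p = 2.82e-05), and overlaps another gene on the opposite strand. Of the pluripotency members Klf4 fell in Pcgf1-/- from 92.3 and 92.0 CPM to 67.4 and 67.0 (-0.45, SE 0.11, edgeR adjusted p = 0.00571) and rose in Pcgf2/4-/- to 112 and 133 (0.42, SE 0.11, edgeR adjusted p = 0.0126). Lin28a fell in the first 4 knockouts, to 92.8 and 102 CPM in Pcgf1-/- from 173 and 174 (-0.84, SE 0.11). It rose to 274 and 280 in Pcgf3/5/6-/- (0.68, SE 0.11, edgeR adjusted p = 1.40e-04). Sox2, the remaining pluripotency member, with a 4.51-fold peak, passed as raised in Pcgf1-/-, Pcgf2/4-/-, Pcgf6-/- and Pcgf1/2/4-/- and as lowered in none.

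**Figure D5:**
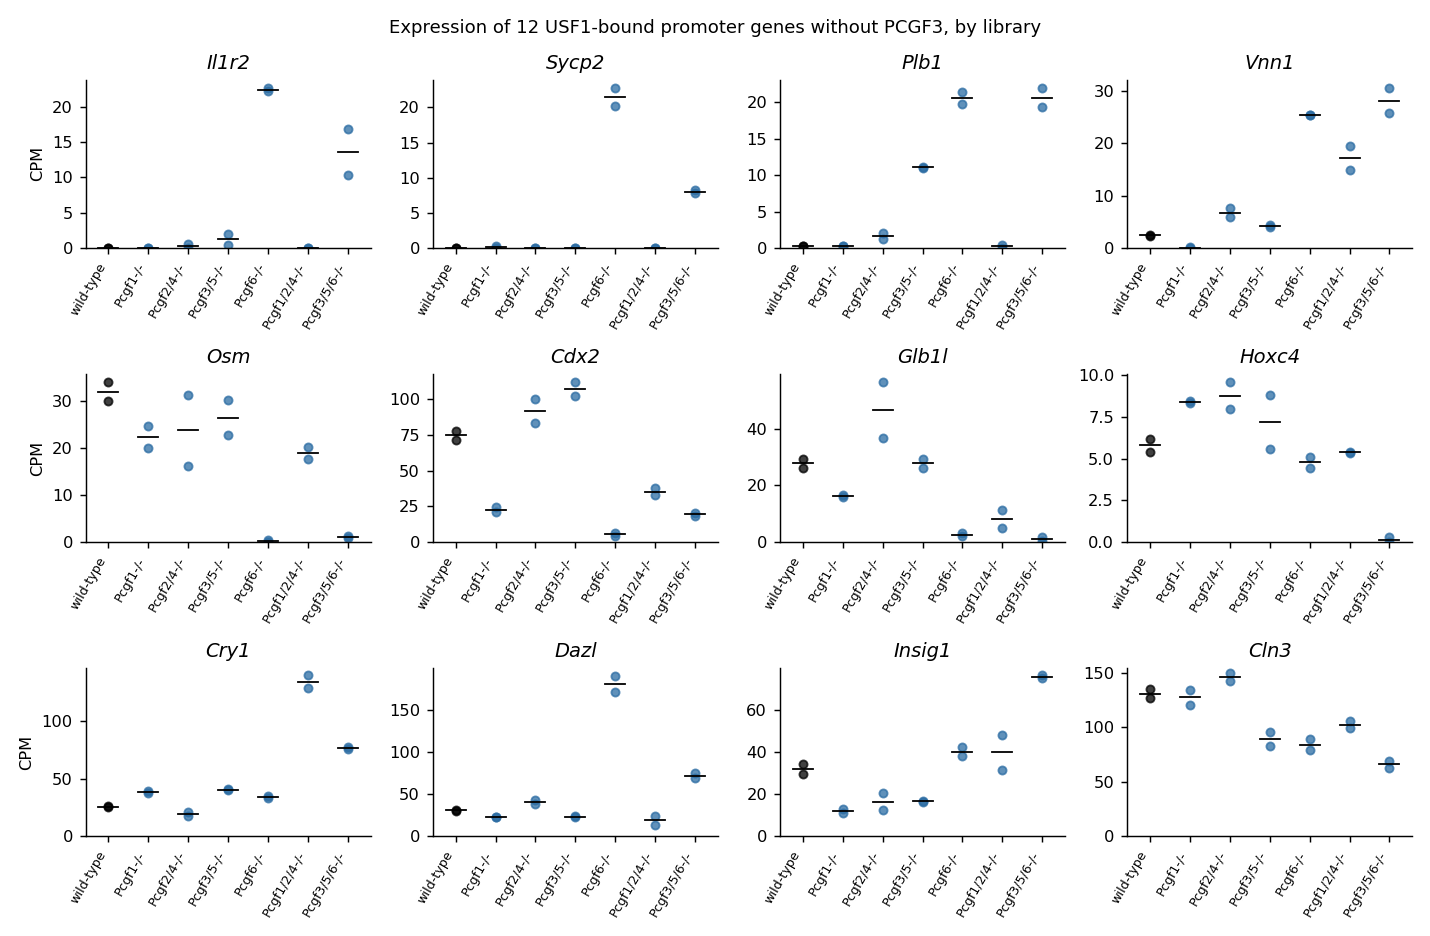
CPM of 12 member genes in each of the 14 libraries (points, 2 per genotype) with the group mean (line), on linear axes that start at 0 and differ between panels. Il1r2 and Sycp2 are at 0 in both wild-type libraries and above 20 CPM in both Pcgf6-/- libraries, and Cry1 is highest in Pcgf1/2/4-/-.

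Of the genes under the 10 strongest promoter sites, C87436 (38.1 and 36.9 CPM in wild-type) and Mapre1 (335 and 343) passed in none of the 6 comparisons. Tasp1 had 56.9 and 51.1 CPM, 75.9 and 74.8 in Pcgf6-/- (0.48, SE 0.12, edgeR adjusted p = 0.00442) and 25.6 and 25.3 in Pcgf1/2/4-/- (-1.08, SE 0.16, edgeR adjusted p = 1.99e-04). Nrd1 rose in Pcgf1/2/4-/- from 67.1 and 63.4 CPM to 144 and 149 (1.17, SE 0.14, edgeR adjusted p = 3.75e-05), and its span overlaps Osbpl9. Phc2, the one site of the 10 without H3K4me3, had 13.8 and 13.5 CPM. It fell in Pcgf3/5-/- to 9.09 and 5.18 (-0.89, SE 0.28, edgeR adjusted p = 0.0376) and rose in Pcgf6-/- to 25 and 22.1 (0.79, SE 0.25, edgeR adjusted p = 0.0165). Pias4 rose in Pcgf1/2/4-/- from 65.5 and 66.8 CPM to 131 and 118 (0.91, SE 0.13, edgeR adjusted p = 1.32e-04). Ip6k1 fell in Pcgf6-/- from 41 and 41.6 CPM to 26.5 and 24.5 (-0.69, SE 0.17, edgeR adjusted p = 0.00370). Outside promoters Ak3, for a mitochondrial adenylate kinase, rose in Pcgf1-/- from 16.3 and 11.8 CPM to 37.6 and 34.3 (1.36, SE 0.19, edgeR adjusted p = 1.02e-04), and Pak6, for a p21-activated kinase, in Pcgf3/5/6-/- from 0.285 and 0.141 CPM to 5.37 and 4.39, a ratio of 23.1 (7.17 to 118).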

How the data were processed

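The authors deposited peak lists and a table of counts per gene (HTSeq 0.7.2, TopHat2 2.1.1, Bowtie 1.2.2, MACS2 2.1.1 and build mm9 are named, without roles, in the submitters' processing notes). Each deposited peak carries the authors' fold enrichment over input and −log10 of p and q, and the smallest −log10 p over all lists was 10.0. Whether counting used strand is not given in the sources used here. Distances used GENCODE (release M1) starts of NCBIM37, sequences its FASTA (pysam 0.24.0), and overlap meant 1 base. Counts were tested with edgeR 4.0.16 (R 4.3.3; TMM, filterByExpr, quasi-likelihood over all 14 libraries, Benjamini-Hochberg, threshold 0.05), after a check on simulated data. CPM used TMM-scaled totals, except for the marker sums, which used library totals without TMM factors. The mean log2 CPM used a prior count of 2, and fold changes the default of the edgeR fit. Intervals are Wilson 95%, and ratios with 1 to 3 counts have exact binomial intervals. Alternatives are in the closing section. DESeq2 1.42.0 was one. The replicate numbers pair no samples: deviations correlated at -0.02 to 0.06 with those of wild-type. The members and lists were chosen with earlier results of these data known. Named peaks are the 10 strongest promoter members, the 5 strongest others (chromosome 18 not used) and the 5 strongest with PCGF3, of which 1 is not reported here. Named genes are, per knockout, the 2 raised and 2 lowered members with the largest fitted change past the threshold (mean log2 CPM of at least 2, both libraries beyond both wild-type ones), the nearest genes of named peaks, Usf1, Usf2, Pcgf3, Pcgf5 and the 2 strongest members of each list. Some others, such as single members of a list, were named after their values were seen. Primitive endoderm, mesendoderm and fibroblast markers had no member promoter; their sums were 3.16 and 3.66, 51.1 to 57.4 and 725 to 728 CPM in wild-type and 0.222 to 66.3, 9.21 to 41.0 and 367 to 843 in the knockouts.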

Additional observations from a re-analysis of the deposited data

How the results depend on the processing

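Each ChIP value rests on 1 library, so the spread between cultures is unknown. The promoter share was 24.4%, 40.3% and 28.4% with windows of 1 kb or 5 kb or coding starts alone. With USF1 peaks at a −log10 q of 10 or more the promoter, H3K4me3 and E-box shares were 33.1%, 49.1% and 70.2%, and the median enrichment 9.40. Without members that had PCGF3 in any library other than Pcgf3/5-/-, these were 30.8%, 45.5%, within its interval for the E-box, and 8.18, and PCGF6 and WDR5 3.35% and 4.02%. With the summit inside the other peak, H3K4me3, PCGF6, WDR5 and RING1B were 40.1%, 3.16%, 3.66% and 4.17%. With 50% of the USF1 peak covered they were 41%, 3.03%, 3.48% and 4.19%, and with the other lists at a −log10 q of 10 or more 44.9%, 2.15%, 1.85% and 4.00%. E-box shares were 74.4% and 52.7% in 200 and 50 bases. Fits of only the 2 groups compared called 130 members in Pcgf2/4-/-, 1589 in Pcgf6-/- and 1642 in Pcgf1/2/4-/-. The wild-type pair summed, an alternative chosen after the data were seen, gave 521 in Pcgf1-/-, 290 in Pcgf2/4-/-, 268 in Pcgf3/5-/- and 672 in Pcgf1/2/4-/-. Leaving out 1 library, with a lone sample assumed to vary like the other groups, gave 463 to 604 in Pcgf1-/-, 232 to 894 in Pcgf2/4-/-, 204 to 271 in Pcgf3/5-/-, 751 to 783 in Pcgf6-/-, 541 to 639 in Pcgf1/2/4-/- and 1015 to 1059 in Pcgf3/5/6-/-. With the replicate number as a block the counts were 717, 418, 421, 990, 985 and 1280 in the order Pcgf1-/-, Pcgf2/4-/-, Pcgf3/5-/-, Pcgf6-/-, Pcgf1/2/4-/- and Pcgf3/5/6-/-. RLE factors, DESeq2 and no filter on low counts left each count within 1.5 times. Of 235 values of named genes under an alternative, 224 kept direction and call and 11 kept direction but missed the threshold, those of Plb1 in Pcgf2/4-/-, Il1r2 and Tcam1 in Pcgf3/5-/-, and Tcam1 and 1700010I14Rik in Pcgf1/2/4-/-. The causes were not tested.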

Other observations

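Some member genes that were lowered in one knockout were raised in another, each against the same wild-type libraries, and no difference between knockouts was tested. Vnn1, lowered in Pcgf1-/-, had 25.4 CPM in both Pcgf6-/- libraries (log2 fold change 3.39, SE 0.23, edgeR adjusted p = 3.72e-08), 14.9 and 19.4 in Pcgf1/2/4-/- and 30.6 and 25.7 in Pcgf3/5/6-/-, against 2.28 and 2.53 in wild-type. Fam183b, with no count in Pcgf2/4-/-, had 24.4 and 22.7 CPM in Pcgf6-/- (2.24, SE 0.22, edgeR adjusted p = 2.74e-06) against 4.99 and 4.92. Tcam1, with no count in Pcgf3/5-/- or Pcgf1/2/4-/-, had 19.9 and 15.8 CPM in Pcgf6-/- (3.71, SE 0.32, edgeR adjusted p = 1.55e-06) and 26.5 and 34.5 in Pcgf3/5/6-/- (4.48, SE 0.32). Its promoter carried PCGF6 and WDR5 peaks, while those of Vnn1 and Fam183b carried none of the 4 marks. Kctd15, with no count in Pcgf2/4-/-, had 32.5 and 31.4 CPM in Pcgf3/5/6-/- (edgeR adjusted p = 5.57e-05) against 9.70 and 11.1. Pcgf5, which is not a member, had 40.3 and 44.3 CPM in Pcgf6-/- against 13.0 and 10.8 (1.83, SE 0.18, edgeR adjusted p = 1.35e-06). These genes were singled out after their values were seen.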
